A study of Mus musculus with 816 samples.

Results

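The data described here were 9 cultures of primary mouse microglia treated with interferon gamma (IFNg) alone for 24 h, set against 40 untreated cultures harvested at the same time. The cultures were picked by the treatment and duration in their sample labels, and they were 9 of 784 cultures and of 816 samples in the series. The series holds microglia cultures exposed to a panel of stimuli and combinations, and microglia isolated from mice, all profiled by sequencing of transcript 3′ ends. The cells were commercial primary microglia from newborn mice, grown in 96-well plates, and the stimulus was added in fresh medium 4 days after plating. No strain, sex or animal of origin is given for them.

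IFNg was used at 0.0001 µg/µl in 3 wells on each of 3 plates, MG160831, MG160901 and MGm160926A. These plates also held 6, 3 and 9 of the untreated wells, and the other untreated wells were on 3 further plates. All 9 IFNg wells were in the middle of their plate, whereas 3 of the 6 untreated wells on MG160831, none of the 3 on MG160901 and 8 of the 9 on MGm160926A were middle wells. The untreated wells of MG160901 lay at an edge or corner, so on that plate treatment and well position cannot be told apart. With untreated middle wells alone, a fit that takes no contrast from MG160901 and was chosen after seeing the data, 1594 genes were called, and 1211 of them were among the 1486 called with all wells. On MG160831 the 3 IFNg wells and the 3 untreated edge wells were in library pool MG160831A1. The 3 untreated middle wells of that plate were in pool MG160831A2. With middle wells alone, treatment and library pool cannot be told apart on MG160831. Plates MG160831 and MG160901 carried cells of lot Sciencell_March15, and MGm160926A carried cells of lot Sciencell_Feb15. Untreated wells on the 3 further plates entered the estimate of the spread but not the fold change. Comparison groups were 8 cultures with interferon alpha (IFNa, 0.0008 µg/µl, 24 h), 10 with interferon beta (IFNb, 0.0001 µg/µl, 24 h), 6 with IFNg for 72 h at the same dose and 25 untreated at 72 h. Replicates were separate wells on 3 plates and of 2 cell lots, and whether wells of the same lot came from separate isolations is not given. Differences in level between plates were taken out by the plate terms or by permuting within plates. The p-values therefore rest on the spread between wells, each counted as a replicate, and not on replication of plates or lots.

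IFNg is the type II interferon, made mainly by T cells and natural killer cells. It binds a receptor of Ifngr1 and Ifngr2 chains, whose kinases are Jak1 and Jak2, and many of its targets carry gamma-activated sites (GAS) in their promoters. IFNa and IFNb are type I interferons and use another receptor, which engages Stat2 and Irf9 and acts through the interferon-stimulated response element (ISRE). In microglia and macrophages IFNg is best known for raising antigen presentation by major histocompatibility complex (MHC) class II and defence against pathogens inside cells.

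Levels are given as CPM, counts scaled to the same total in each culture, so that a value is the share of a culture's mapped reads that fell on a gene. Depth was estimated by taking the most frequent low value above 0 in a culture as the worth of 1 read. It was about 1210000 to 16400000 mapped reads in the IFNg cultures and 1090000 to 15000000 in the untreated ones. On MG160901 every untreated well, at 1170000 to 2250000 reads, was shallower than every IFNg well, at 3570000 to 4350000. Depth and treatment cannot be told apart on that plate, and the part of depth was not tested. The 2 shallowest IFNg cultures were replicates 7 and 9 on plate MGm160926A, with 1210000 and 2320000 reads. Without replicate 7, 1355 genes were called, and 1455 without replicate 9, beside 1486 with all. Pairs of IFNg cultures correlated with Pearson's r of 0.816 to 0.967 over the genes tested, which describes shared expression and carries no test. Fold changes are differences of mean log2(CPM + 1) from a limma fit with a term for each plate, given as log2 ± standard error (SE) with Benjamini-Hochberg adjusted p, and they understate the change of genes with low levels. A gene was called higher or lower at an adjusted p under 0.05 and a log2 fold change of at least 1 in size. Single genes were also tested by an exact 2-sided rank-sum permutation test within plates, whose smallest possible p is 5.4e-06, and a gene with no overlap in any plate has that p. CPM are shares of a total, so by construction a strong rise of some genes lowers the CPM of others.

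Among 11579 genes tested, 636 (5.49%) were called higher and 850 (7.34%) lower after 24 h with IFNg, and the median log2 fold change over all of them was -0.13. The balance of directions depended on the fit. There were 749 higher and 758 lower without plate terms, and 565 higher and 993 lower with library pool terms in place of plate. With pool terms, the folds of MG160831 rest on untreated edge wells and those of MG160901 on edge and corner wells. Well position and treatment cannot be told apart there. By an exact rank-sum test of all cultures with Bonferroni correction, 446 were higher and 248 lower. That test takes no account of plates and differs from the test within plates used for single genes. Counts by a rank-sum test for gene groups are from the test of all cultures. Genes called higher took 12.7% to 15.9% of all CPM in the IFNg cultures and 2.80% to 5.07% in the untreated ones. The genes called lower took 3.78% to 6.93% with IFNg and 10.3% to 23.6% without. Both sets were picked by their difference in these same cultures, so the gaps between the ranges follow from the choice and only describe size. In every plate, all IFNg wells lay above all untreated wells for 401 genes (3.46%) and below them for 221 (1.91%). Over all plates together the groups did not overlap for 183 higher genes (1.58%) and 57 lower genes (0.492%). These shares are the background for the counts of each gene group. In bulk cultures, fewer cells of a type and less RNA per cell cannot be told apart.

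**Figure D1:**
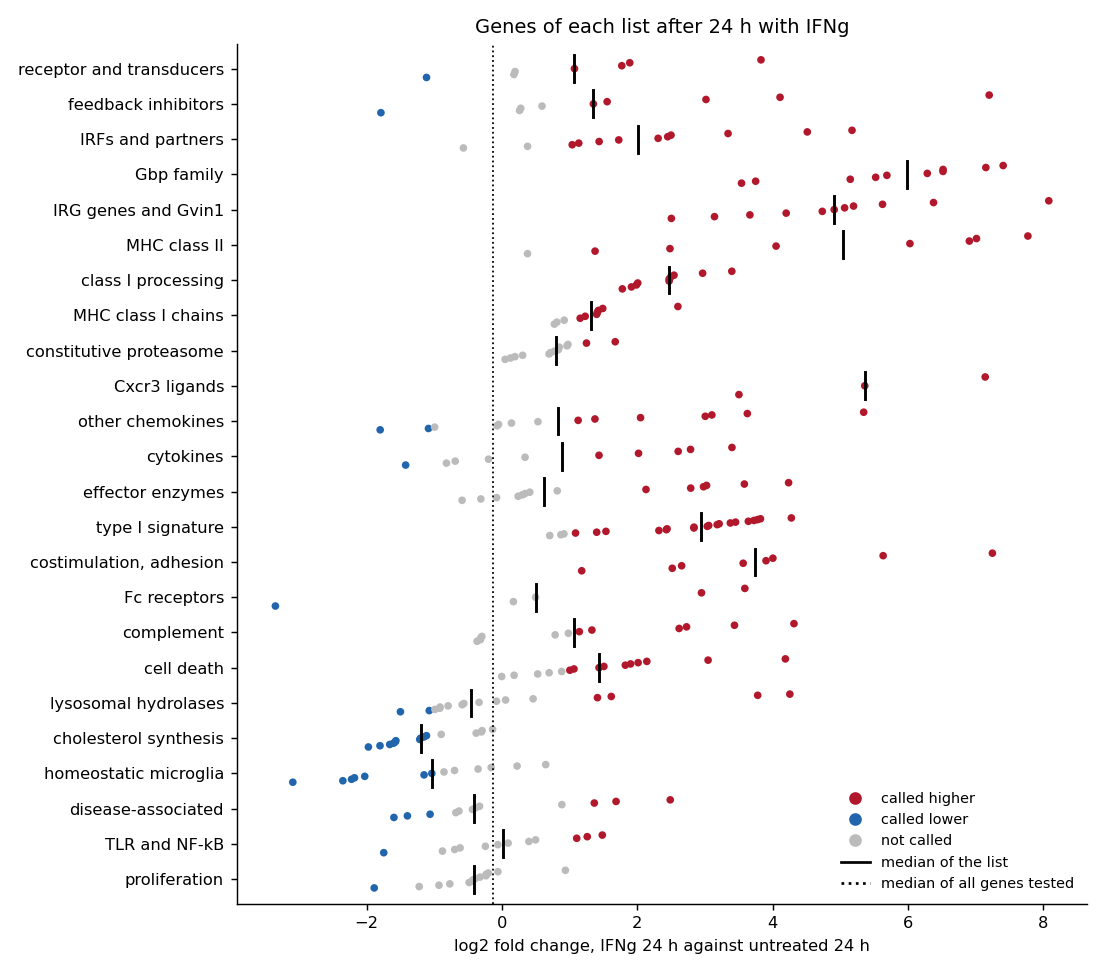
Log2 fold change after 24 h with IFNg against untreated cultures (horizontal axis) for the tested genes of 24 groups (rows), coloured by whether each gene was called, with a bar at each group's median and a dotted line at the median of all genes tested, -0.13. The Gbp genes and the IRG genes with Gvin1 lie wholly to the right, with medians of 5.98 and 4.91, and the cholesterol synthesis genes wholly to the left of 0, between -1.97 and -0.14.

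The signalling chain changed unevenly. Of its 7 genes, 4 were called higher and 1 lower, with a median log2 fold change of 1.07. Stat3, which answers to interleukin 6 and related cytokines, stood at 199 to 395 CPM (median 218) with IFNg and 27.6 to 136 CPM (median 68.5) without. The groups did not overlap, and Stat3 rose by 1.77 ± 0.14 (SE, adjusted p = 3.5e-15). Stat2, a factor of type I signalling, rose by 1.89, and its groups were apart within each plate but not over all plates. Jak2 rose by 1.07 ± 0.20 (SE, adjusted p = 2.9e-05), and without plate MG160831 its change of 0.92 was no longer called.

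The receptor itself did not follow. Ifngr1, the chain that binds the ligand, stood at 7.41 to 39.1 CPM (median 32.1) with IFNg and 14.7 to 86.4 CPM (median 44.2) without. The ranges overlapped, and the gene fell by 1.12 (SE 0.20, adjusted p = 2e-05, exact p = 0.00094), with -1.02, -1.24 and -1.12 on the 3 plates. Without IFNg replicate 7, on plate MGm160926A, it fell by 0.96, which is under the minimum for a call. The signalling chain Ifngr2 changed by 0.18 (adjusted p = 0.52) and the kinase Jak1 by 0.19 (adjusted p = 0.27), and neither was called.

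Inhibitors of the pathway rose more often than they fell. Of 9 tested, 5 were called higher and 1 lower, with a median of 1.35. Socs1, which blocks Jak kinases, stood at 689 to 1411 CPM (median 825) with IFNg and 0.801 to 48.5 CPM (median 8.28) in untreated cultures. It had no overlap and rose by 7.20 ± 0.28 (SE, adjusted p = 3.4e-28), with 7.43, 7.07 and 7.07 on the 3 plates. Socs3, which inhibits signalling through Stat3, stood at 56.0 to 153 CPM (median 96.5) against 0 to 61.8 CPM (median 11.8). All its IFNg wells exceeded the untreated wells of their own plate, and the rise was 4.11 ± 0.29 (SE, adjusted p = 2.8e-17). Usp18, which restrains type I interferon signalling, rose by 3.01, and the phosphatases Ptpn6 and Ptpn2 rose by 1.55 and 1.35. Socs2, an inhibitor of growth hormone signalling, fell by 1.79, but without plate MGm160926A its change of -1.12 was not called (adjusted p = 0.082).

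Interferon regulatory factors (IRFs) and their partners mostly rose, 10 of 12 tested being called higher and none lower, with a median of 2.02. Irf1, a primary target of IFNg signalling, stood at 309 to 549.8 CPM (median 504) with IFNg and 3.96 to 41.2 CPM (median 24.8) without. Its groups were wholly apart, and it rose by 4.51 ± 0.25 (SE, adjusted p = 5.2e-22). Irf8, a lineage factor of macrophages and microglia, stood at 1309 to 1918 CPM (median 1530.4) against 165 to 821 CPM (median 317). The lowest IFNg culture was above the highest untreated one, and the rise was 2.50 ± 0.13 (SE, adjusted p = 4e-23). Batf2, a factor that pairs with Irf1, rose by 5.17 from 0 to 12.2 CPM (median 1.10) to 37.1 to 105 CPM (median 69.1). Irf7, which amplifies type I responses, rose by 3.34, and its groups were apart only within plates.

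Regulators of MHC genes rose from low levels. Ciita, the master regulator of MHC class II genes, was listed at 0 in 30 of 40 untreated cultures and reached 0.689 CPM at most in the rest. With IFNg it ranged over 0 to 36.1 CPM (median 6.39), with 1 culture at 0. It was called higher, by 2.45 ± 0.29 (SE, adjusted p = 5.6e-10) with an exact p of 0.00068, and by 2.52, 4.21 and 1.21 on the 3 plates. Nlrc5, its counterpart for class I genes, rose by 2.31. Irf2 was called higher at 1.13, but not without IFNg replicate 8 (0.99) or plate MGm160926A (0.68). Irf9, at 1.04, lost its call without IFNg replicate 7 (1.00), replicate 9 (0.91), plate MG160831 (0.99) or plate MGm160926A (0.74). Irf3, which senses viral signals through phosphorylation, and Spi1, a lineage factor of myeloid cells, were not called, with changes of -0.57 and 0.38.

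**Figure D2:**
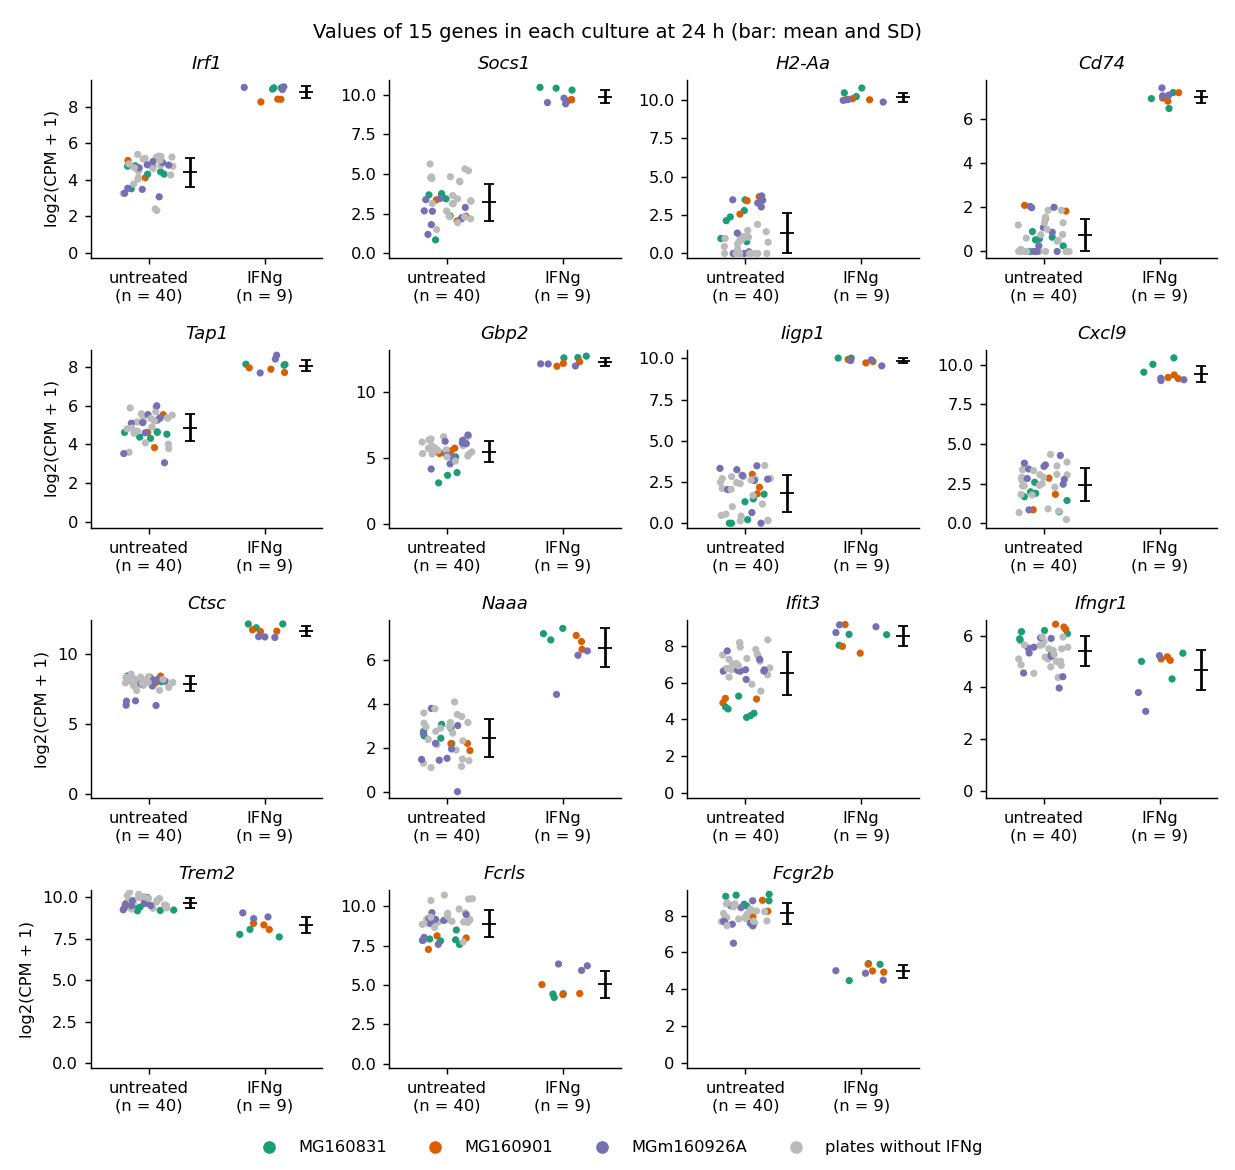
Level of 15 genes in each culture at 24 h, as log2(CPM + 1) on the vertical axis, for 40 untreated and 9 IFNg cultures, with points coloured by plate and bars at the mean ± standard deviation. Irf1, Socs1, H2-Aa, Cd74, Tap1, Gbp2, Iigp1, Cxcl9, Ctsc and Naaa lie wholly above the untreated range and Trem2, Fcrls and Fcgr2b wholly below it, while Ifit3 and Ifngr1 overlap.

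The interferon-inducible GTPases attack the membranes around pathogens inside cells, and they rose without exception among those tested. All 11 tested genes of a list of immunity-related GTPases (IRG), which also holds the very large inducible GTPase Gvin1 of a separate family, and all 10 tested guanylate-binding proteins (Gbp) were called higher, and none of these 21 genes overlapped between groups over all plates. Iigp1 stood at 749 to 1041 CPM (median 964) with IFNg and 0 to 10.3 CPM (median 3.24) without, a rise of 8.08 ± 0.34 (SE, adjusted p = 1.2e-26), the largest of all genes tested. Tgtp2 rose by 6.38, Igtp by 5.62, Ifi47 by 5.19 and Irgm2 by 4.91. Irgm1 and Gvin1 rose by 4.20 and 3.14. Tgtp1 and Tgtp2, and Iigp1 and Gm4951, are close copies whose reads the authors' counting may have divided between them, so the split within each pair is uncertain.

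The Gbp genes tested had a median of 5.98. Gbp2 stood at 4081 to 6931 CPM (median 4739) with IFNg and 7.80 to 108 CPM (median 46.8) without. Its lowest IFNg culture exceeded the highest untreated culture many times over, and it rose by 7.15 ± 0.25 (SE, adjusted p = 1.5e-29), with 8.31, 6.61 and 6.47 on the 3 plates. Gbp2b, a near copy of Gbp2 with the same caution on shared reads, rose by 7.40 from 0 to 5.54 CPM (median 0.682) to 208 to 529.9 CPM (median 402). Gbp4, Gbp5 and Gbp8 rose by 6.52, 6.52 and 6.28, and the smallest rises were 3.75 for Gbp9 and 3.54 for Gbp11. Gbp10 did not pass the filter on low values. By the GENCODE M21 annotation of build GRCm38, 5 of the 11 Gbp genes lie together on chromosome 3 (chr3:142493978-142638008) and 6 on chromosome 5 (chr5:105014150-105346472).

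Sequences just upstream of these genes were read because GAS and ISRE motifs are the known landing sites of the pathway. Promoter windows of 300 bases, 250 before and 50 after the annotated start, came from RefSeq on GRCm38.p6, and both strands were searched for TTCNNNGAA, the core of a GAS, and for GAAA and GAAA with any 2 bases between, the core of an ISRE. Of the 8 IRG genes with a window, 6 held the first motif and 7 the second, where 8.30% and 3.44% of all 32851 windows did. In 5 of all 32851 windows the 2 motifs stood in that order with 2 bases between them, and all 5 belonged to IRG genes called higher (Gm12185, Igtp, Irgm2, Tgtp1 and Tgtp2), an arrangement noticed after the windows were read. The stretches of 4 of them are shown with the motif matches in capitals, each on the gene's own strand, to let the shared arrangement be seen.
Igtp: gccatTTCTAGGAActGAAACTGAAAgctg
Irgm2: gccatTTCCAGGAActGAAACTGAAAgctg
Tgtp2: gccatTTCCAGGAAtcGAAACCGAAAccta
Gm12185: gccatTTCCAGGAAtaGAAAGTGAAAccta
The first match began 45, 75, 81 and 86 bases before the start. The stretches lie at chr11:58199506-58199535 (plus strand), chr11:58214897-58214926 (plus), chr11:49064269-49064298 (minus) and chr11:48927244-48927273 (minus). The 8 IRG genes with a window are relatives that all lie on chromosome 11. The bases just before the first motif are the same in all 4 stretches shown. Windows of such genes are not independent of each other, and the part of shared descent in the matches was not tested. A match is a string of letters and was not tested as a binding site.

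Stretches of Irf1, Socs1 and Gbp2 are shown in the same way, since these genes are a factor that acts early, an inhibitor and a defence protein of the pathway.
Irf1: ctgatTTCCCCGAAatgatgaggccgagtg
Socs1: tgccgGAAAGAGAAACCGAAAgcgggggtg
Gbp2: tttagTTTCACTTTCactgtcttaagcata
The Irf1 stretch (chr11:53769919-53769948, plus strand) holds a GAS core that begins 90 bases before the first of 2 annotated starts. In Socs1 (chr16:10785595-10785624, minus strand) 2 ISRE cores overlap by 4 bases, and the first begins 83 bases before the start. The Gbp2 match (chr3:142620599-142620628, plus strand) is an ISRE core on the opposite strand, 59 bases before the start. Among the 571 windows of genes called higher, 9.81% held the GAS core and 12.6% the ISRE core, against 6.67% and 2.59% of windows of genes called lower and 6.64% and 2.66% of those tested but not called. No MHC class II window held the ISRE core and 1 of 10 held the GAS core.

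MHC class II genes, which present peptides to helper T cells, rose from levels near 0. Of 8 tested, 7 were called higher, with a median of 5.04. H2-Aa, the alpha chain of the I-A molecule, stood at 916 to 1726 CPM (median 1029) with IFNg and 0 to 12.4 CPM (median 0.963) without. No untreated culture came near the IFNg range, and the rise was 7.77 ± 0.38 (SE, adjusted p = 7.2e-24), with 8.38, 6.79 and 7.89 on the 3 plates. Its beta chain partner H2-Ab1 rose by 6.91 and H2-Eb1 of the I-E molecule by 7.01, both without overlap. Cd74, the invariant chain that guides class II molecules to the peptide-loading compartment, stood at 88.3 to 169 CPM (median 132) against 0 to 3.26 CPM (median 0.501). It was likewise fully separated, with a rise of 6.03 ± 0.30 (SE, adjusted p = 1e-23). H2-DMa and H2-DMb1, which exchange peptides on class II molecules, rose by 4.05 and 2.48, and H2-DMb2 by 1.37, a call that was lost without plate MG160831 at 1.16. Ifi30, a lysosomal thiol reductase, changed by 0.38 and was not called, and H2-Oa, H2-Ob and H2-Eb2 did not pass the filter on low values. The 9 class II chain genes of this group lie within chr17:34092340-34341412 of GRCm38.

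MHC class I, which presents peptides to cytotoxic T cells, was already expressed in untreated cultures and rose with IFNg. Of 10 genes of class I chains and their light chain, 7 were called higher and none lower, with a median of 1.31. By the exact rank-sum test of all cultures, 4 were higher. B2m, the light chain shared by class I molecules, stood at 3385 to 4404 CPM (median 3917) with IFNg and 885 to 2093 CPM (median 1324) without. Its lowest IFNg culture was above the highest untreated one, and it rose by 1.49 ± 0.12 (SE, adjusted p = 3.5e-15). H2-K1 rose by 1.23, and H2-D1 changed by 0.92 (adjusted p = 1.5e-07), short of the minimum fold, though it passed at 1.06 without plate MG160901. The nonclassical H2-T23, a ligand of natural killer cell receptors, rose most among the chains, by 2.60 ± 0.21 (SE, adjusted p = 1.4e-15). H2-Q6 and H2-Q7 rose by 1.42 and 1.41, and being near copies their reads may not have been told apart.

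The machinery that cuts peptides and loads class I molecules rose throughout, all 10 genes being called higher and none overlapping within plates, with a median of 2.47. Tap1, a chain of the pump that carries peptides into the endoplasmic reticulum, stood at 203 to 383 CPM (median 268) with IFNg and 7.35 to 62.5 CPM (median 31) without. Its groups were apart, with a rise of 3.40 ± 0.23 (SE, adjusted p = 3.8e-18). Tapbpl, which edits peptides on class I, rose by 2.96, and the immunoproteasome subunits Psmb9, Psmb10 and Psmb8 rose by 2.49, 2.47 and 1.98. The proteasome activator genes Psme1 and Psme2 rose by 1.91 and 2.47. Subunits of the ordinary proteasome were mostly not called at the minimum fold. Of 14 tested, 2 were called higher, Psma5 by 1.67 and Psmb7 by 1.25, and the others were below the minimum fold or missed the test. The count was 4 without plate MG160831, without plate terms or by the exact rank-sum test of all cultures. It was 5 with untreated middle wells alone, and 10 with no minimum fold. Psmb5, Psmb6 and Psmb7 are the subunits that Psmb8, Psmb9 and Psmb10 replace. Psmb5 and Psmb6 changed by 0.19 and 0.046 and were not called, while Psmb7 was called higher, as given above.

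Chemokines rose in part. The 3 ligands of Cxcr3, which draw activated T cells, all rose without overlap between groups. Cxcl9 stood at 509 to 1369 CPM (median 582) with IFNg and 0.187 to 19.2 CPM (median 4.83) without, a rise of 7.14 ± 0.32 (SE, adjusted p = 1.2e-25). Cxcl10 rose by 5.36 and Cxcl11 by 3.50. Among 14 other chemokines tested, 7 were called higher and 2 lower, with a median of 0.83. Ccl8, a monocyte attractant, rose from 0 to 5.39 CPM (median 0.598) to 32.4 to 114 CPM (median 96.3), by 5.34. Ccl2, the main ligand of Ccr2 on monocytes, rose by 3.62 and Cxcl16 by 1.37. Cxcl2, a neutrophil attractant, fell by 1.80 with wide overlap. Ccl3, a macrophage chemokine, fell by 1.09, but the change was -0.088 without plate MGm160926A and -0.60 without IFNg replicate 7, and was not called in either case.

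Cytokine genes moved in both directions, 5 of 10 tested being called higher and 1 lower. Tnf, a central inflammatory cytokine, stood at 175 to 340.1 CPM (median 230.2) with IFNg and 26.2 to 409.7 CPM (median 89.8) without. The overall ranges overlapped, yet every IFNg well exceeded the untreated wells of its plate, and Tnf rose by 2.02 ± 0.20 (SE, adjusted p = 5.2e-12). Il1b, another inflammatory cytokine, ranged over 0 to 12.4 CPM (median 4.13) against 0 to 65.3 CPM (median 9.22). It was not called, at -0.20 (adjusted p = 0.76, exact p = 0.8). A pair of soluble brakes rose without overlap, Il18bp, which binds interleukin 18, by 3.40 and Il1rn, which blocks the interleukin 1 receptor, by 2.60. Il27 and Il15 rose by 2.79 and 1.43. Csf1, a growth factor of macrophages, fell by 1.42, and without plate MGm160926A its change of -0.98 was not called. Ifng was listed at 0 in all 49 cultures, and Ifnb1 in all 9 IFNg cultures, and neither passed the filter on low values.

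Among 14 effector enzymes tested, 6 were called higher and none lower. Irg1, which makes the antimicrobial metabolite itaconate, stood at 61.7 to 175 CPM (median 126) with IFNg and 1.43 to 101 CPM (median 9.21) without. Its groups were apart within each plate, with a rise of 4.23 ± 0.21 (SE, adjusted p = 1.1e-23). Nos2, the inducible nitric oxide synthase, ranged over 0 to 91.2 CPM (median 35.3) against 0 to 22.0 CPM (median 2.64). It rose by 2.98 overall (exact p = 0.00019), and by 4.06 and 4.36 on plates MG160831 and MG160901 and by 1.09 on MGm160926A. Ch25h, which makes an oxysterol with antiviral action, rose by 3.58 and Nampt, an enzyme of NAD synthesis, by 3.02, both without overlap. The NADPH oxidase genes Cybb and Ncf1 were not called, with Cybb at 0.41 and Ncf1 at 0.24. Ido1, a tryptophan-degrading enzyme that IFNg induces in many human cells, was listed at 0 in all 9 IFNg cultures.

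Genes usually read as a type I interferon signature also rose, 19 of 22 being called higher and none lower, with a median of 2.93. Oasl1, an antiviral protein that restrains Irf7 translation, stood at 144 to 424 CPM (median 269) with IFNg and 3.99 to 124 CPM (median 31.5) without. It was separated over all plates and rose by 4.27 ± 0.22 (SE, adjusted p = 5.3e-23). Ifit1 and Ifit3, which bind viral RNA or its partners, rose by 3.45 and 3.05, with separation within plates but not over all of them. Rtp4 rose by 3.82 and Isg15, a ubiquitin-like protein, by 3.64. The other 3 were not called, the RNA sensor Ddx58 at 0.91, Oas1a at 0.87 and Oas2 at 0.70. Ddx58 passed at 1.02 without plate MG160901, and Oas1a and Oas2 at 1.19 and 1.01 without MGm160926A. Oas1a also passed without IFNg replicate 9, at 1.13. Ifit3 and Ifit3b are close copies, and the division of reads between them is uncertain.

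All 8 surface molecules of costimulation and adhesion that were tested were called higher, with a median of 3.73. Cd86, a costimulatory ligand of Cd28, stood at 47.7 to 195 CPM (median 134) with IFNg and 1.90 to 20.9 CPM (median 5.71) without. Cd274, which encodes the inhibitory ligand PD-L1, stood at 65.7 to 227 CPM (median 160.3) against 1.49 to 20.5 CPM (median 7.31). Neither gene overlapped between groups, and the rises were 4.00 and 3.90. Ly6a and Slamf8 rose by 7.25 and 5.63, and the adhesion molecule Icam1 by 3.56. Cd40, which receives help from T cells, rose by 2.65 with overlap.

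Fc receptors for antibody changed in opposite directions. Fcgr4, an activating receptor, stood at 508 to 782 CPM (median 654) with IFNg and 20.3 to 182 CPM (median 58.7) without, a rise of 3.59 ± 0.20 (SE, adjusted p = 1.6e-21). Fcgr1, the high-affinity activating receptor, rose by 2.95, again without overlap. Fcgr2b, the inhibitory receptor, stood at 21.2 to 41.1 CPM (median 30.9) against 89.7 to 573 CPM (median 273). Every IFNg culture was below every untreated one, and it fell by 3.35 (SE 0.18, adjusted p = 1.2e-22). Fcgr3 and the shared signalling chain Fcer1g changed by 0.50 and 0.17 and were not called.

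Complement genes rose in part, 6 of 12 tested being called higher and none lower. Serping1, which inhibits the first component, rose from 0 to 2.12 CPM (median 0) to 2.12 to 71.6 CPM (median 18.9), by 4.31, and the highest untreated culture was nearly equal to the lowest IFNg culture. Cfb of the alternative pathway rose by 3.43 without overlap and C3 by 2.73 with overlap. C1qb and C1qc rose by 1.33 and 1.14, while C1qa changed by 0.78 and missed the minimum fold. The receptors C3ar1 and C5ar1 were not called, at -0.37 and -0.32.

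Of 15 tested genes of inflammasomes and cell death, 10 were called higher and none lower. Zbp1, a sensor of Z-form nucleic acids, stood at 191 to 399 CPM (median 268) with IFNg and 4.25 to 53.8 CPM (median 16.1) without, and rose by 4.19 ± 0.24 (SE, adjusted p = 5.3e-21). Mlkl, the executioner of necroptosis, rose by 3.04 and Casp1, the protease of inflammasomes, by 2.01, both without overlap. Casp4 and Nlrp3, which sense bacterial products and damage, rose by 1.50 and 1.82 with overlap. Casp8, an initiator of apoptosis, was not called at 0.18. Of the 10 calls, those of Gsdmd, the pore former of pyroptosis, and Aim2, a sensor of DNA, were lost when cultures or plates were left out. Gsdmd stood at 0.78 (adjusted p = 0.056) without plate MGm160926A and also lost its call without IFNg replicate 2, 7, 8 or 9. Aim2 stood at 0.89 and 0.95 without plates MG160831 and MG160901 and lost its call without replicate 6 or 9. By the exact rank-sum test of all cultures 5 of the 15 were called higher.

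Lysosomal enzymes moved in both directions. Of 16 tested, 4 were called higher and 2 lower, and the median was -0.45. Ctsc, the protease that activates granule enzymes, stood at 2301 to 4485 CPM (median 3141) with IFNg and 78.7 to 375 CPM (median 256) without. The groups were wholly apart, with a rise of 3.78 ± 0.17 (SE, adjusted p = 1.3e-25). Naaa, which breaks down the lipid mediator palmitoylethanolamide, stood at 20.6 to 173 CPM (median 113) against 0 to 16 CPM (median 4.62). It also rose without overlap, by 4.25 ± 0.33 (SE, adjusted p = 8.2e-16). Ppt1, which removes palmitate from proteins, rose by 1.61. Ctsl, a protease that trims the invariant chain in some cells, fell by 1.50, and Ctsd by 1.08, a call that was lost without plate MG160831 (-0.75), plate MG160901 (-0.98) or IFNg replicate 1 (-0.99). Ctsb changed by -0.80, with all IFNg wells below the untreated wells of their plate, and missed the minimum fold.

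Cholesterol synthesis genes fell. Of 15 tested, 10 were called lower and none higher, with a median of -1.20. Srebf2, which encodes the factor that switches on this pathway, stood at 19.4 to 30.5 CPM (median 26.1) with IFNg and 34.3 to 135 CPM (median 85.0) without. No IFNg culture reached the untreated range, and the gene fell by 1.80 (SE 0.15, adjusted p = 1.2e-14). The enzymes Fdft1, Fdps and Hmgcs1 fell by 1.97, 1.66 and 1.57, and Cyp51 by 1.58. Insig1, which holds back the pathway, changed by -0.38 and was not called. Idi1 and Msmo1 lost their calls without plate MG160831, at -0.90 and -0.94, and Sc5d without IFNg replicate 7, at -0.98. With untreated middle wells alone 6 of the genes were called lower, and by the exact rank-sum test of all cultures 4.

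Genes typical of microglia at rest in the brain were called lower in 7 of 13 cases and none was called higher, with a median of -1.04. With no minimum fold, 1 of them was called higher. Fcrls, an Fc receptor-like protein, stood at 17.5 to 80.1 CPM (median 21) with IFNg and 153 to 1692 CPM (median 524) without, and it fell by 3.09 (SE 0.20, adjusted p = 1.3e-18) with no overlap. Olfml3, Tmem119 and Gpr34 fell by 2.22, 2.18 and 2.35. Cx3cr1, the receptor of neuronal fractalkine, stood at 36.5 to 243 CPM (median 79.9) against 33.1 to 529 CPM (median 379.9). It fell by 2.03, with -2.87 and -2.46 on the first 2 plates and -0.99 on MGm160926A. Trem2, a lipid receptor on microglia, fell by 1.15 without overlap, and by 0.97 without plate MG160831, which is under the minimum for a call. P2ry12 and Siglech, which mark resting microglia, were low in both groups, with medians of 5.00 and 0 CPM with IFNg and 3.49 and 0 CPM without.

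Genes of disease-associated microglia moved in both directions. Of 12 tested, 3 were called higher and 3 lower, with a median of -0.41. Apoe, the lipid carrier, stood at 2259 to 10594 CPM (median 4347) with IFNg and 8167 to 59039 CPM (median 20916) without. It fell by 1.60 (SE 0.14, adjusted p = 2.6e-14), and all IFNg wells were below the untreated wells of their plate. Gpnmb, a glycoprotein of lysosome-rich macrophages, fell by 1.40 without overlap. Lpl, which frees fatty acids from lipoproteins, rose by 1.36, the cystatin Cst7 by 2.49 and the glucan receptor Clec7a by 1.68. Of genes raised by interleukin 4, Mrc1 fell by 2.21, while Arg1 and Retnla were not called at 0.30 and 0.53.

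By the rule for named genes, the 12 largest rises were, besides Iigp1, H2-Aa, H2-Ab1, H2-Eb1, Gbp2, Gbp2b, Gbp4, Gbp5, Socs1, Cxcl9 and Ly6a, the serine protease inhibitor Serpina3g at 7.25 ± 0.31 (SE, adjusted p = 1.2e-26). The 12 largest falls were led by Rgs7bp, a binding partner of G protein regulators, which went from 10.5 to 224 CPM (median 51.9) to 0.362 to 16.7 CPM (median 5.07) and fell by 3.58 (SE 0.39, adjusted p = 6.8e-11). Receptors of several kinds stood among them. S1pr1, which senses sphingosine 1-phosphate, fell by 3.56, the serotonin receptor Htr2b by 3.49, the chemokine receptor Cxcr4 by 3.44 and the oxysterol receptor Gpr183 by 2.94. Igfbp4, which binds insulin-like growth factors, stood at 28.8 to 96.1 CPM (median 69.5) against 140.4 to 1330.2 CPM (median 714) and fell by 3.43. Gas6, a ligand that bridges dying cells to phagocytes, stood at 39.3 to 121 CPM (median 93.3) against 306 to 1419.5 CPM (median 596). Its groups did not overlap, and it fell by 2.94 (SE 0.12, adjusted p = 8.8e-28). The remaining 5 were the transcription factor Sox4 (3.18), the phosphodiesterase Pde1c (3.14), Dkk2 of the Wnt pathway (3.03) and the receptors Fcgr2b and Fcrls given above.

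Among genes of Toll-like receptor signalling, Myd88, the main adaptor, rose by 1.48 and the endotoxin receptor Tlr4 by 1.26, while Tlr7, a sensor of single-stranded RNA, fell from 39 to 140.4 CPM (median 71.8) to 11.7 to 35.6 CPM (median 17.2), by 1.75. Of 12 tested, 3 were called higher and 1 lower, with a median of 0.01. Clec4e, a receptor for mycobacterial lipids, and Irak3, which dampens the pathway, changed by -0.25 and -0.70 and were not called. Proliferation genes were called lower in 1 of 14 cases, with a median of -0.41. That gene, Mki67, fell by 1.89 and lost its call without plate MGm160926A at -1.24. Lower calls in this list numbered 4 without plate terms and 5 with untreated middle wells alone. Pcna, not called at 0.94, was called higher without plate MG160831 (1.10) or MG160901 (1.01).

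Markers of other cell types were mostly low. Among them Flt1 and Xcr1 were called higher and Aldoc, Cspg4, Cbr2, F13a1 and Pf4 lower. Neutrophil markers summed to at most 9.18 CPM in any culture and those of T, NK and B cells to at most 6.79 CPM, and none passed the filter on low values. Astrocyte markers summed to 6.54 to 17.9 CPM with IFNg and 2.90 to 37.6 without, with Gfap at 0 in all 9 IFNg cultures, and Aldoc, an enzyme of glycolysis, fell by 1.94. Oligodendrocyte lineage markers summed to 20.6 to 86.4 CPM with IFNg and 34.7 to 113 without, and Cspg4, a surface proteoglycan of their precursors, fell by 2.56. Mog, Nefl and Cldn5 were listed at 0 in all 49. Markers of monocytes and border macrophages summed to 22.8 to 90.5 CPM with IFNg and 94.1 to 383 without, and the 3 tested, Cbr2, F13a1 and Pf4, fell by 2.57, 1.55 and 1.52. Their part in the other falls was not tested. Endothelial and fibroblast markers summed to 55.6 to 229.8 CPM with IFNg and 23.6 to 505 CPM without, and Flt1 rose by 1.17. Dendritic cell markers summed to 134 to 381 CPM against 14.9 to 703 CPM. Xcr1, a marker of cross-presenting dendritic cells, rose by 3.48 from 0 to 4.05 CPM (median 0.325) to 5.21 to 31.9 CPM (median 16.8), and Clec9a, a marker of these cells outside the list, by 5.02, while Cd209a was listed at 0 in all 49 cultures and Zbtb46 was not called at -0.47. Of 12 microglia markers, 3 were called higher and 2 lower, Aif1 by 1.92 among the first. Lower calls numbered 4 without IFNg replicate 8 or plate MGm160926A and 1 without plate MG160831. The sum of these markers ranged over 11805 to 17225 CPM with IFNg and 10946 to 24415 CPM without.

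IFNg was compared directly with the type I interferons in a single fit of 24 h cultures, in which all 3 stimuli share the untreated cultures. Fold changes against untreated are given side by side, and each was tested against untreated. Differences between stimuli were tested by their own contrast. The doses were 0.0001 µg/µl of IFNg and IFNb and 0.0008 µg/µl of IFNa, and neither their activity per mass nor their equivalence is known. IFNa wells shared no plate with IFNg wells and were linked to them through untreated wells, while IFNb shared MG160901 and MGm160926A. Of 11988 genes tested, 655 (5.46%) were higher with IFNg than with IFNa and 417 (3.48%) lower. Against IFNb, 455 (3.8%) were higher and 395 (3.29%) lower. On their own against untreated cultures, IFNa had 599 higher (5%) and 1344 lower (11.2%), and IFNb 581 higher (4.85%) and 918 lower (7.66%).

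MHC class II genes differed between the interferons. Of 8 tested, 7 were higher with IFNg than with either type I interferon, and their median differences were 5.63 against IFNa and 5.32 against IFNb. H2-Aa changed by -0.33 with IFNa and 1.13 with IFNb and differed from IFNg by 8.17 (adjusted p = 7.9e-21) and 6.70 (adjusted p = 3e-20). For Cd74 the type I values were 0.0094 and 0.32, and for Ciita 0.018 and 0.11. Of these 3 genes only H2-Aa was called with a type I interferon, higher with IFNb. Of the Gbp family 8 of 10 were higher with IFNg than with each type I interferon, though most rose with all, as Gbp2 did by 7.12 with IFNg, 4.09 with IFNa and 3.83 with IFNb.

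Several regulators differed as well. Irf8 changed by 2.50 with IFNg, -0.62 with IFNa and -0.29 with IFNb, and its differences were 3.12 and 2.80 (adjusted p = 5.6e-22 and 2.4e-23). Socs3 rose by 4.14 with IFNg and changed by 0.31 and -0.54 with the others. Socs1 rose with all 3, by 7.21, 2.03 and 2.96, and was higher with IFNg by 5.18 and 4.25. Naaa, the cytoskeletal protein Zyx and Clec9a were also higher with IFNg than with either, with 4.12, 3.24 and 5.03 under IFNg and no called change under IFNa or IFNb. The serotonin receptor Htr2b fell by 3.49 with IFNg and changed by 0.12 and -0.079 with IFNa and IFNb.

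**Figure D3:**
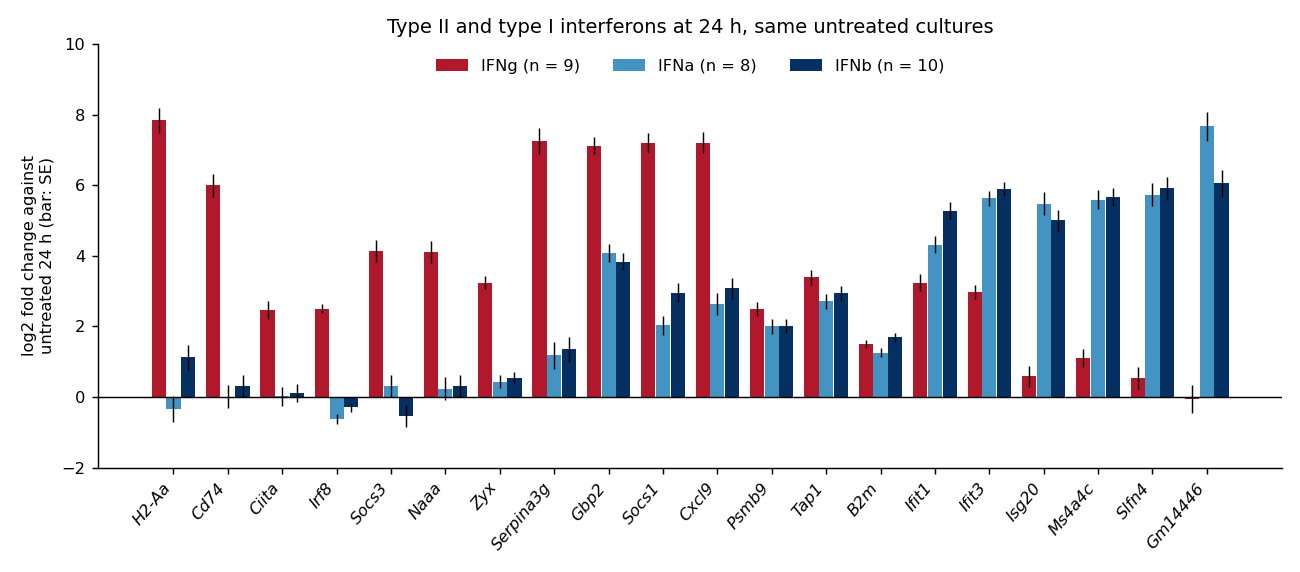
Log2 fold change against untreated 24 h cultures (vertical axis, bars with SE) of 20 genes under IFNg (9 cultures), IFNa (8) and IFNb (10). Cd74, Ciita, Irf8, Socs3, Naaa and Zyx were called higher with IFNg and not with IFNa or IFNb, H2-Aa rose far more with IFNg than with either, Psmb9, Tap1 and B2m rose with all 3, and Isg20, Slfn4 and Gm14446 rose with IFNa and IFNb and were not called with IFNg.

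The type I signature rose more with the type I interferons. All 22 genes were called higher with IFNa and with IFNb, with medians of 3.96 and 4.72 beside 2.93 for IFNg, and 14 were lower with IFNg than with IFNa and 18 lower than with IFNb. Of these 22 genes only Rtp4 was higher with IFNg than with IFNa, by 1.05 (adjusted p = 0.027). Ifit3 rose by 2.98 with IFNg, 5.63 with IFNa and 5.89 with IFNb. The largest differences toward the type I interferons were in Gm14446, a gene of the Ifit cluster, at -7.72 and -6.11, and in Slfn4, a Schlafen family member, at -5.19 and -5.37. Isg20, an exonuclease that degrades viral RNA, differed by -4.89 and -4.42, and under IFNg alone neither it, nor Slfn4, nor Gm14446 was called (0.54, 0.61 and -0.013). Tlr7 changed by 0.86 and 0.97 with the type I interferons, below the minimum fold, and fell with IFNg, with differences of -2.61 and -2.72.

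For Tap1 no difference between IFNg and IFNb was called, at 0.45 ± 0.26 (adjusted p = 0.33). Class I chains were in part higher with type I interferon, 4 of 10 being lower with IFNg than with IFNa and 3 lower than with IFNb. Of the cholesterol genes 10 of 15 were called lower with each interferon, and none was called in the differences between IFNg and IFNa or IFNb.

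The 72 h cultures showed which changes were larger or smaller at the later time. All 72 h cultures carried lot Sciencell_May16, which no IFNg culture at 24 h carried, so time and lot cannot be told apart. At 72 h 572 of 12411 genes (4.61%) were higher with IFNg and 1776 (14.3%) lower than in untreated 72 h cultures. Of the 6 IFNg wells at 72 h, 2 were middle wells. On plate MGm161010D all 3 IFNg wells lay at the bottom edge and all 5 untreated wells at the top edge. Treatment and well position cannot be told apart on that plate. These IFNg wells also had fewer reads than any untreated well there, and 6830 to 7324 genes above 5 CPM against 7221 to 8330. The parts of position and depth in the 72 h counts were not tested. The change at 72 h exceeded that at 24 h in 117 genes (0.943%) and was below it in 545 (4.39%), so 17.7% of differing genes were on the higher side. Without plate terms the numbers were 64 and 405, with 356 of the 662 genes shared, and with no filter on low values 105 and 358. After centring each culture on its median these numbers were 159 and 371, and the median difference over all genes moved from -0.17 to -0.04.

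MHC class II, the IRG and Gvin1 list and the costimulatory group, with 8, 11 and 8 genes tested, held no gene that differed between times. Only 662 of all 12411 genes tested differed, so few such genes were to be looked for in groups of this size. The absence of a call therefore does not show that their response was kept. H2-Aa changed by 8.71 at 72 h beside 7.77 at 24 h, a difference of 0.94 ± 0.55, and Iigp1 by 7.71 beside 8.08. Chemokine and defence genes included several with a smaller change at the later time. Cxcl9 rose by 4.83 at 72 h, with a difference of -2.31 (adjusted p = 0.009), and Cxcl11 changed by 0.70, which was not called. Nos2 changed by 0.039 at 72 h, a difference of -2.94 (adjusted p = 2.8e-06), and Ccl2, Ccl22 and Cfb by 0.27, 0.22 and 0.58, all below their 24 h change. Of the Gbp family 4 of 10 were smaller at 72 h, Gbp2b by 3.61 among them, and Socs1 was smaller by 1.88 (adjusted p = 0.047).

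The largest decline was in Itpka, a kinase of inositol phosphates, which rose by 3.91 at 24 h and changed by -0.22 at 72 h. Klrk1, the gene of the receptor NKG2D, rose by 6.29 and 2.31, and Lrrc4, a synaptic adhesion protein, rose by 4.77 and changed by 0.91. Rap1gap2 and Dhrs9 were the other 2 of the 5 largest declines, at -3.87 and -3.69. Irf8 and Ctsc rose less at 72 h, by 1.34 and 2.53, and Clec7a changed by 0.11. In the other direction H2-Q7 rose by 3.57 at 72 h, more by 2.16, and Il1b, not called at 24 h, rose by 2.29. B2m was higher by 0.96 (adjusted p = 0.00091), a difference below a log2 of 1 and so not called. Hal, which degrades histidine, fell by 2.61 at 24 h and changed by 0.52 at 72 h, and the other 4 largest gains, Gm38033, Adcy4, Clic5 and Nfkbil1, rested on low levels, with IFNg medians at 24 h between 0 and 3.43 CPM.

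**Figure D4:**
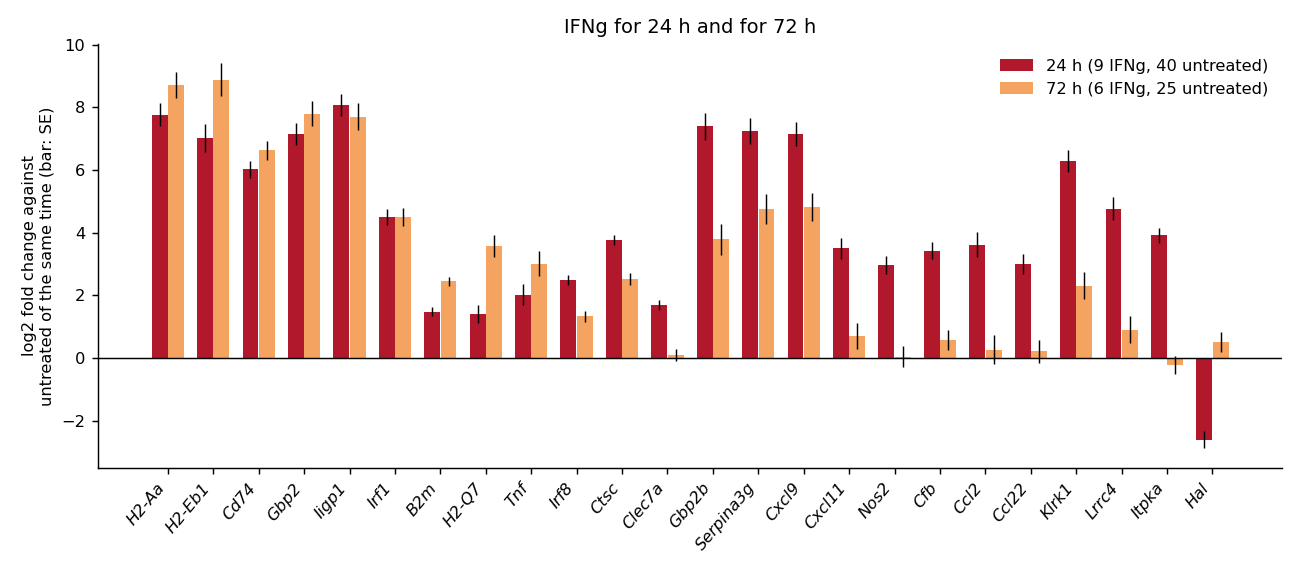
Log2 fold change with IFNg against untreated cultures of the same time (vertical axis, bars with SE) of 24 genes at 24 h (9 IFNg and 40 untreated cultures) and 72 h (6 and 25), in a single fit. No difference between times was called for Gbp2, Iigp1 or Irf1, while Nos2, Ccl2, Ccl22, Cfb, Clec7a and Itpka were not called at 72 h.

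The size of the response also varied between the 3 plates. An F test of the IFNg change by plate called 11 of 10856 genes (0.101%). Ccl22, a chemokine for regulatory T cells, rose by 4.52 on MG160831, 4.71 on MG160901 and 0.52 on MGm160926A (adjusted p = 0.0038). Oasl1 rose by 5.34, 4.68 and 3.06 and Rsad2, an antiviral enzyme, by 4.12, 3.08 and 2.03 (adjusted p = 0.046 and 0.042). Of the 22 type I signature genes, 18 had their smallest rise on MGm160926A, where the median was 2.19 beside 3.72 and 3.18. All 14 other chemokines tested were also lowest there, with a median of 0.13 beside 1.03 and 1.51. These counts are descriptions, since genes of 1 plate share its cultures.

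Untreated cultures differed between plates as well. The summed level of the type I signature in untreated wells had a median of 382 CPM on MG160831, 402 on MG160901 and 780.0 on MGm160926A. In IFNg wells the medians were 4017, 3050.1 and 3282 CPM. Untreated wells of MGm160926A were thus highest by the median, and its IFNg wells lay between those of the other plates. That plate also differed in cell lot, so plate and lot cannot be told apart, the folds of MG160901 rest on edge and corner controls, and the part of the untreated level in the smaller rise was not tested. The Gbp genes had plate medians of 6.44, 6.15 and 5.37, and class II genes 5.22, 4.53 and 5.22.

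**Figure D5:**
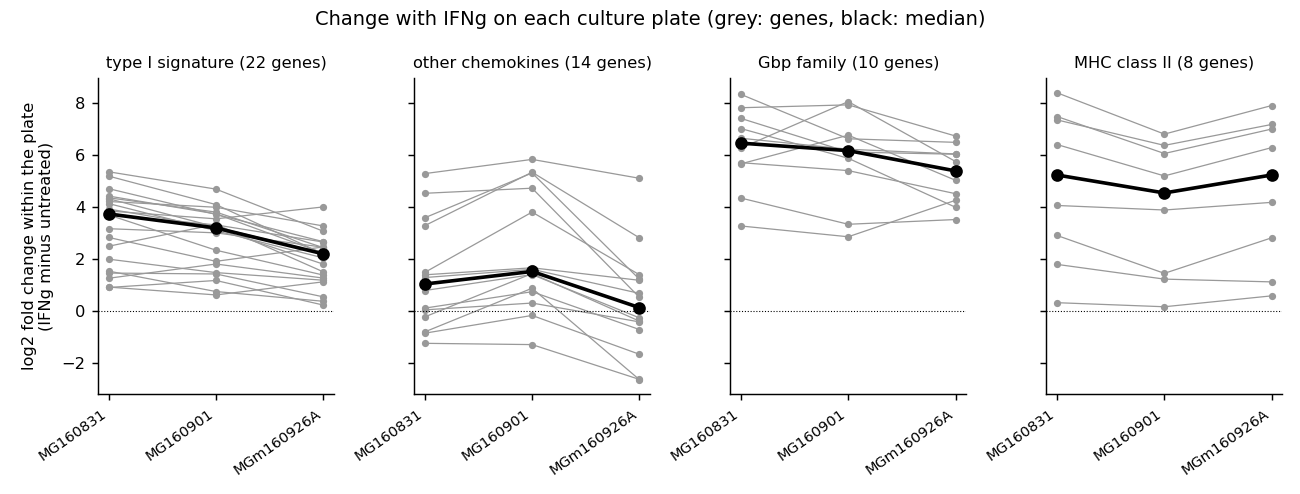
Log2 fold change with IFNg within each plate (vertical axis) for the tested genes of 4 groups, a grey line for each gene and a black line for the median, on plates MG160831, MG160901 and MGm160926A (3 IFNg wells each). Medians of the type I signature go from 3.72 and 3.18 to 2.19 and those of other chemokines from 1.03 and 1.51 to 0.13, while class II medians stay between 4.53 and 5.22.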

How the data were processed

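RNA of microglia cultures was amplified and sequenced at its 3′ ends. Salmon 0.7.1 with Ensembl transcripts was the quantifier, and the authors deposited a gene table of normalized values, which they call TPM and which were treated as CPM (counts scaled to a common total), since no length scaling applies to 3′ ends. The labels name build mm8 while the methods name an Ensembl release of GRCm38, and no coordinates were taken from the table. Low values were not whole multiples of 1 read often enough to recover counts, so no count test was used. Of 784 culture columns, 98 were used and 686 were not. The authors' filters on cultures before deposit were not retested.

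Values were tested as log2(CPM + 1) with limma 3.58.1 in R 4.3.3 (lmFit, eBayes with trend), with plate as fixed terms, on genes above 5 CPM in at least 4 cultures of the fit, and p-values were adjusted by Benjamini-Hochberg over all genes tested. A call needed an adjusted p under 0.05 and a change of 1 or more in size on the log2 scale. The exact within-plate test enumerated 369600 permutations. IFNg, IFNa and IFNb were fitted together for their contrasts, and 24 h and 72 h cultures together for the change between times. The limma step was tested on simulated data. Promoter windows and gene positions came from RefSeq GRCm38.p6 and GENCODE M21. Plate, pool and lot came from header rows of the table.

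Genes named were the 12 largest called rises and falls with a mean of at least 5 CPM and the same sign on every plate, members of gene lists that follow the roles of the pathway, example genes of the study, and the 5 largest differences in each direction of each contrast. Members and lists were chosen with earlier results of these data known, so no list is independent evidence. Some genes are not reported here. Alternatives left out plate terms, cultures and plates in turn, put library pool terms in place of plate, and changed the pseudocount to 0.1, the filter, the centring and the test.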

Additional observations from a re-analysis of the deposited data

Results flagged for a closer look

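In the 9 IFNg cultures at 24 h, 202 genes of the text were checked for a single culture far from the rest on the log2(CPM + 1) scale, and 23 of them had a gap to the nearest culture above the 95% critical value of Dixon's test for 9 samples. Chance flags about 1 in 20 groups. IFNg replicate 7, at 1210000 reads the shallowest IFNg culture, was the distant one in 14 of the 23 and replicate 9, at 2320000 reads, in 6. The part of depth was not tested. Replicate 7 was lowest for Aim2 (0 CPM), Ccl3 (0 CPM), Clec4e (0 CPM), Clec9a (0 CPM), Ifngr2 (116 CPM), Il27 (17.1 CPM), Irf2 (79.8 CPM), Mki67 (0 CPM), Naaa (20.6 CPM), Nlrc5 (6.58 CPM), P2ry12 (0 CPM), S1pr1 (0 CPM) and Usp18 (28.8 CPM) and highest for Tmem119 (7.41 CPM). Replicate 9 was lowest for Csf1 (0 CPM), Irak3 (1.29 CPM), Oas1a (2.05 CPM) and Psmb6 (95.4 CPM) and highest for Ptpn6 (130.4 CPM) and Siglech (1.70 CPM). Replicate 3 was lowest for Ccl8 (32.4 CPM) and Klrk1 (166 CPM). Replicate 1 was lowest for Ctsd (1324 CPM).

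The change with IFNg differed between 24 h and 72 h for 662 genes by the limma interaction test, with time and cell lot not to be told apart. Well position and depth at 72 h also differed between groups on plate MGm161010D, and their parts were not tested. Among genes of the text the change at 72 h minus that at 24 h was -4.13 for Itpka, -3.98 for Klrk1, -3.87 for Rap1gap2, -3.86 for Lrrc4, -3.69 for Dhrs9, -3.61 for Gbp2b, -3.35 for Ccl2, -2.94 for Nos2, -2.86 for Cfb, -2.80 for Cxcl11, -2.79 for Ccl22, -2.59 for Oasl1, -2.49 for Serpina3g, -2.31 for Cxcl9, -2.24 for Gbp5, -2.24 for Gbp9, -2.09 for C3, -1.98 for Usp18, -1.94 for Aim2, -1.88 for Serping1, -1.88 for Socs1, -1.77 for Cst7, -1.57 for Clec7a, -1.51 for Myd88, -1.46 for C5ar1, -1.25 for Ctsc, -1.24 for Psmb7, -1.21 for Spp1, -1.18 for Lpl and -1.16 for Irf8. The difference had the other sign, at 3.13 for Hal, 2.87 for Nfkbil1, 2.49 for Il1b, 2.41 for Gm14446, 2.16 for H2-Q7, 1.63 for H2-Q6, 1.51 for Olfml3 and 1.38 for F13a1.

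The change with IFNg differed between the 3 plates for 11 genes by the limma F test. The range of the log2 fold change over the plates was 5.95 for Gm10800, 4.57 for F830016B08Rik, 4.19 for Ccl22, 2.28 for Oasl1, 2.17 for Agap1, 2.09 for Rsad2, 2.04 for Atf4, 1.88 for Cx3cr1, 1.66 for Ccl6, 1.58 for Lgals9 and 1.16 for Hmox1. Gm10800 and F830016B08Rik are gene models of uncertain function, and the parts of cell lot, well position and depth in these differences were not tested.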

How the results depend on the processing

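Of the values of single genes under IFNg at 24 h recomputed under the alternatives, 6573 kept their direction and their side of the threshold, 79 passed it in addition, 144 fell short of it and 2 turned direction. The 2 that turned were both Ccl5, at -0.24 without plate terms and under the exact rank-sum test of all cultures. The number of genes called, 1486, was 2865 with no minimum fold (1186 higher and 1679 lower) and 694 (446 higher and 248 lower) by an exact rank-sum test of all cultures with Bonferroni correction, which changed the test, the correction and the handling of plates together, and the cause was not tested. Without plate terms the calls numbered 1507, with 749 higher and 758 lower. Leaving out 1 IFNg culture gave 1355 to 1583, and leaving out plate MG160831, MG160901 or MGm160926A gave 1319, 1484 and 1368. IFNg against IFNa gave 1859 in place of 1072 without plate terms (1394 higher in place of 655), with no plate shared between them, and the cause was not tested. Centring cultures on their median raised the genes that differed between plates from 11 to 18, and the cause was not tested. Other alternatives kept these total counts within 1.5 times, but not every count by direction or by gene group. The higher side of the change between times went from 117 to 64 without plate terms and to 88 with a pseudocount of 0.1, and the lower side from 545 to 358 with no filter on low values. By the rank-sum test members called higher went from 4 to 2 in the receptor and transducer list, 7 to 4 in class I chains, 7 to 3 in other chemokines, 5 to 3 in cytokines, 6 to 3 in complement, 10 to 5 in cell death and 3 to 1 in microglia markers, and members called lower from 10 to 4 in cholesterol synthesis and 3 to 1 in monocyte markers. With no minimum fold, members called higher went from 2 to 10 in the ordinary proteasome, and members called lower from 2 to 7 in lysosomal enzymes, 3 to 6 in disease-associated genes, 2 to 7 in microglia markers and 1 to 4 in Toll-like receptor genes. Calls of list members not named for it elsewhere were lost for H2-Q4 and H2-T22 without plate MG160831, Ccl5 and Tlr1 without MG160901, Ctsh and P2ry13 without MGm160926A, Cd69, Mx2 and Spp1 without either of MG160831 and MG160901, Spp1 also without IFNg replicate 1, Mx2 without 2, Cd69 without 5 and P2ry13 without 7. Fits with IFNa and IFNb cultures added (1467) and with untreated cultures of middle wells only (1594) were chosen after seeing the data. A fit of all 24 h conditions together was not run. No paired analysis was possible because the sample titles carry no replicate numbers, and the plate took the place of a block. The precision at low levels is limited by depth, 1210000 reads in the shallowest IFNg culture.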
